A study of Caenorhabditis elegans with 12 samples.

Results

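Whole Caenorhabditis elegans grown at 22 C were compared with worms of the same genotype grown at 20 C, in strains that carry no glycosylase mutation. The comparison took 6 of the 12 RNA sequencing libraries of the series, chosen by their genotype and temperature labels: WT, Tau aggregate and Anti-Tau aggregate worms at 22 C, and WT, Tau aggregate and Anti-Tau aggregate worms at 20 C. WT is the N2 strain. Tau aggregate is BR5270, which makes in its neurons, from the rab-3 promoter, an aggregation-prone piece of the human tau protein. Anti-Tau aggregate is BR5271, which makes from the same promoter a form of that piece altered to resist aggregation. All worms were synchronised and collected at day 1, about 5000 per library from 3 plates of a strain. The other 6 libraries of the series, Ung-1 mutants with and without the tau transgenes at 22 C and Nth-1 mutants with and without them at 20 C, served only to read the same genes in libraries that the comparison did not use; both genes encode DNA glycosylases.

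Each genotype had 1 library per temperature, so the 3 genotypes stood as the 3 pairs, and the spread behind each p-value is how far the 22 C to 20 C difference varied among genotypes together with the noise of single libraries. The libraries of 22 C and those of 20 C are also the 2 library sets of the series, as their deposited files are named, so temperature and library set cannot be told apart. Every rise or fall given is of the 22 C libraries relative to the 20 C libraries. RNA came from whole animals, where a change in the number of cells of a type and a change in RNA per cell cannot be told apart.

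As background, C. elegans is cultured within a narrow range of temperatures, and both temperatures here lie inside it. Heat beyond that range activates the factor HSF-1 and, through it, the small heat shock genes hsp-16 and the chaperone gene hsp-70. At lower temperatures worms raise the desaturation of membrane lipids, for which the stearoyl-CoA desaturase gene fat-7 is the best known target. Temperature is sensed by the AFD neurons through the guanylyl cyclases GCY-8, GCY-18 and GCY-23. In mammals the RNA-binding protein RBM3 is known for its induction by mild cold, and the worm gene rbm-3.1 is named after that family.

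Library totals were 24342707, 19791392 and 21683203 counts for WT, Tau aggregate and Anti-Tau aggregate at 22 C, against 26282132, 15124127 and 17346213 counts for the same genotypes at 20 C. Of the 12743 genes that passed the filter on low counts, 36 changed at an adjusted p under 0.05 (edgeR quasi-likelihood test, 0.283% of genes tested), 29 of them higher (0.228%) and 7 lower (0.0549%) at 22 C. At an unadjusted p under 0.05 there were 1281 higher (10.1%) and 1274 lower (10%) genes, and the fitted change was above 0 in 49.5% and below 0 in 50.5% of genes. All 36 had the same direction in the 3 genotype pairs, as had 44.7% of all genes tested. The paired test favours genes whose pairs agree, so this follows in part from the calling. For 28 of the 36, 21 higher and 7 lower, the 3 libraries of 22 C lay wholly beyond the 3 of 20 C. Over all genes tested the libraries of 22 C lay above those of 20 C for 766 genes (6.01%) and below them for 381 (2.99%).

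Over the 8591 genes that averaged 5 CPM or more (CPM being a gene's share of the library's counts on a common scale, after TMM scaling), genotype held 64.8% of the sum of squares of log2 CPM, temperature 16.9% and the remainder 18.3%. Not every library was closest to the other of its genotype: WT 20 C and Anti-Tau aggregate 20 C differed by a root mean square log2 difference of 0.466, and WT 22 C and Anti-Tau aggregate 20 C by 0.562. The Tau aggregate libraries of 22 C and 20 C were the closest pair, at 0.40, against 0.72 for the WT pair and 0.912 for the Anti-Tau aggregate pair. Higher genes of at least 2-fold followed the same order and lower genes did not: 412 genes were higher (3.23%) and 424 lower (3.33%) in the Tau aggregate pair, 1321 higher (10.4%) and 760 lower (5.96%) in the WT pair, and 3108 higher (24.4%) and 295 lower (2.31%) in the Anti-Tau aggregate pair. The number of called genes depended on the fit. DESeq2 on the same libraries called 1101 genes, 386 higher (4.16%) and 715 lower (7.7%), limma voom called 16 higher (0.126%) and 6 lower (0.0471%), a fit without the genotype pairing called 1, and a fit of all 12 libraries called 0, with 1285 genes at an unadjusted p under 0.05. Leaving out a library called 132 genes without WT 22 C, 323 without Tau aggregate 22 C, 447 without Anti-Tau aggregate 22 C, 111 without WT 20 C, 365 without Tau aggregate 20 C and 460 without Anti-Tau aggregate 20 C. In the 39 gene lists described further on, limma voom called 1 member of the antimicrobial list, 1 of the nucleolar list and 0 of the others. Each of the 36 genes kept its direction in every one of these fits in which it was tested, but the fits reuse the libraries in which the genes were called.

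The largest rises were in the pud genes, named for proteins found at higher abundance in mutants of the insulin receptor daf-2. CPM values of single genes are given in the order WT, Tau aggregate and Anti-Tau aggregate throughout, and coordinates are those of the WBcel235 build. The gene pud-4 (F15E11.12, chromosome V, 2326678 to 2327282) had 31.7, 16.17 and 37.2 CPM in the 22 C libraries, against 0.670, 0.379 and 0.245 CPM in the 20 C libraries. It was below 1 CPM in every library of 20 C and above 15 CPM in every library of 22 C, and it rose (log2 fold change 5.93, SE 0.38, edgeR adjusted p = 0.000857). Its neighbour pud-3 (F15E11.15, chromosome V, 2324634 to 2325152) had 118, 41.6 and 64.3 CPM in the 22 C libraries, against 4.81, 1.14 and 3.31 CPM in the 20 C libraries. The 3 libraries of 22 C were well above those of 20 C, and pud-3 also rose (log2 fold change 4.61, SE 0.21, edgeR adjusted p = 0.000264).

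The 6 pud genes form 1 cluster on chromosome V between 2322038 and 2330930, in the order pud-1.2, pud-2.2, pud-3, pud-4, pud-2.1 and pud-1.1. In each of the 6 genes all 3 libraries of 22 C exceeded all 3 of 20 C. Of the copies outside pud-3 and pud-4, pud-2.1 had 6.41, 2.31 and 6.08 CPM in the 22 C libraries, against 0.670, 0.253 and 0.735 CPM in the 20 C libraries, and it rose (log2 fold change 3.16, SE 0.46, edgeR adjusted p = 0.0414). For pud-2.2 the levels were 4.44, 2.40 and 7.03 CPM in the 22 C libraries, against 1.18, 0.189 and 1.16 CPM in the 20 C libraries, with an adjusted p of 0.106. The copies pud-1.1 and pud-1.2 stayed below 4 CPM in every library. These pairs of copies are near-identical and may share reads, so the values of single copies are uncertain. The next gene before the cluster, Y19D10B.6, chosen for its place, had 0.586, 4.20 and 0.570 CPM in the 22 C libraries, against 1.02, 5.999 and 0.490 CPM in the 20 C libraries and its groups overlapped.

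The called genes sysm-1, lys-7 and lys-8 have known roles in innate immunity. The gene sysm-1 (T24B8.5, chromosome II, 9082626 to 9083193), also called T24B8.5, is used as a reporter of the p38 MAP kinase branch of intestinal immunity. It had 39.4, 18.8 and 14.97 CPM in the 22 C libraries, against 1.26, 2.72 and 0.980 CPM in the 20 C libraries. The groups did not overlap, and sysm-1 rose (log2 fold change 3.95, SE 0.42, edgeR adjusted p = 0.0161). Lysozymes cleave bacterial cell walls, and lys-7 (C02A12.4, chromosome V, 3481432 to 3482600) had 79.4, 485 and 234 CPM in the 22 C libraries, against 31.4, 193 and 35.9 CPM in the 20 C libraries. Each genotype was higher at 22 C, but the Tau aggregate library of 20 C exceeded the WT library of 22 C, so the groups overlapped across genotypes; lys-7 rose in the paired test (log2 fold change 1.77, SE 0.26, edgeR adjusted p = 0.0433). A second lysozyme gene, lys-8 (C17G10.5, chromosome II, 5586178 to 5587651), had 172, 246 and 299 CPM in the 22 C libraries, against 77.0, 132 and 93.8 CPM in the 20 C libraries, without overlap, and it rose as well (log2 fold change 1.24, SE 0.16, edgeR adjusted p = 0.0261).

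In the antimicrobial list, which holds lysozymes, saposin-like spp peptides, caenacins and related secreted products, 2 of 66 tested members rose, lys-7 and lys-8, and 0 fell. Its median log2 fold change was 0.51, against -0.0056 for all genes tested, and 13 members lay above with no overlap and 0 below (6.01% and 2.99% of all genes; 0.228% of all genes were called higher). Among these, lys-1 had 244, 312 and 294 CPM in the 22 C libraries, against 120.3, 214 and 118 CPM in the 20 C libraries. Its adjusted p was 0.0623. The gene dod-3, named as downstream of the factor DAF-16, had 26.8, 26.6 and 72.6 CPM in the 22 C libraries, against 7.37, 13.8 and 11.5 CPM in the 20 C libraries. Its adjusted p was 0.0637. DESeq2 called 11 of the 44 members with an adjusted p higher and 0 lower (4.16% and 7.7% of all genes). The list's median was 0.57 in the WT pair, 0.076 in the Tau aggregate pair and 1.46 in the Anti-Tau aggregate pair.

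C-type lectins are secreted or membrane proteins with a carbohydrate-binding fold, and many are expressed in the intestine. Of 86 tested members 2 rose, clec-41 and clec-209, and 0 fell (0.228% of all genes were called higher), and the median was 0.50. With no overlap 12 lay above and 2 below (6.01% and 2.99% of all genes), and DESeq2 called 14 higher and 3 lower of 54 with an adjusted p (4.16% and 7.7% of all genes). The gene clec-41 (B0365.6, chromosome V, 13134903 to 13138101) had 67.4, 156 and 101 CPM in the 22 C libraries, against 33.7, 83.5 and 33.1 CPM in the 20 C libraries. Every genotype was higher at 22 C, with the Tau aggregate library of 20 C above the WT library of 22 C, and the paired test gave a rise (log2 fold change 1.16, SE 0.16, edgeR adjusted p = 0.0414). Levels of clec-209 (Y19D10A.9, chromosome V, 2351676 to 2352932) were 1.05, 8.87 and 12.26 CPM in the 22 C libraries, against 0.0788, 0 and 1.41 CPM in the 20 C libraries. Its log2 fold change was 3.90 (adjusted p = 0.0361), a value that depends on the prior count because the Tau aggregate library of 20 C had 0 counts. F56A4.2, which carries no other name in the annotation and was chosen after its values were seen, had 6.53, 20.5 and 12.31 CPM in the 22 C libraries, against 0.630, 0.632 and 1.96 CPM in the 20 C libraries and rose (log2 fold change 3.54, SE 0.47, edgeR adjusted p = 0.0348). It and clec-209 have gene models of the same length on chromosome V, and how reads that match several places were counted is not given in the sources used here, so both are uncertain.

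The 28 genes of the intestine list, such as those for proteases, transporters and GATA factors of that tissue, had a median of 0.30, with 0 members called. At an unadjusted p under 0.05, 9 were higher and 1 lower (10.1% and 10% of all genes). DESeq2 called 2 higher and 1 lower of 27 with an adjusted p (4.16% and 7.7% of all genes). The list's summed level was 7930.2, 9491 and 16003 CPM in the 22 C libraries, against 5778, 9402 and 6675 CPM in the 20 C libraries. By pair the median was 0.39 in the WT pair, -0.12 in the Tau aggregate pair and 0.97 in the Anti-Tau aggregate pair. The part of the intestine's share of the animal in the immune results was not tested.

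The F-box protein gene fbxb-97 (C52E2.6, chromosome II, 1846977 to 1848161), of a large nematode family whose products recruit targets to ubiquitin ligases, had 15.2, 21.3 and 8.46 CPM in the 22 C libraries, against 1.34, 1.52 and 2.27 CPM in the 20 C libraries. The groups did not overlap and fbxb-97 rose (log2 fold change 3.11, SE 0.42, edgeR adjusted p = 0.0361). It was the single call among 209 tested members of the families with an F-box, a MATH or a BATH domain, whose median was 0.27. Of all genes 0.228% were called higher. Of the members 24 lay above with no overlap and 4 below (6.01% and 2.99% of all genes). Examples are fbxc-43, with 9.46, 6.10 and 9.84 CPM in the 22 C libraries, against 1.89, 1.45 and 2.27 CPM in the 20 C libraries (adjusted p = 0.0637), and math-45, with 10.3, 8.55 and 13.7 CPM in the 22 C libraries, against 1.06, 4.36 and 2.14 CPM in the 20 C libraries (adjusted p = 0.118). DESeq2 called 9 higher and 6 lower of 121 members with an adjusted p (4.16% and 7.7% of all genes).

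Other called genes that carry a gene name are described one by one. Of the 36 calls 15 carry only a clone name, and most of those are not described. The gene ccb-1 (T28F2.5, chromosome I, 3641651 to 3647082) encodes the beta subunit of voltage-gated calcium channels, and it had 22.9, 61.5 and 34.2 CPM in the 22 C libraries, against 5.28, 7.07 and 8.21 CPM in the 20 C libraries. The groups were apart, and ccb-1 rose (log2 fold change 2.44, SE 0.26, edgeR adjusted p = 0.0161). For snt-2 (F42G9.7, chromosome III, 786070 to 793733), a member of the synaptotagmin family of vesicle calcium sensors, the levels were 48.7, 59.7 and 51.4 CPM in the 22 C libraries, against 17.5, 16.6 and 21.1 CPM in the 20 C libraries. These were also apart, and snt-2 rose (log2 fold change 1.53, SE 0.17, edgeR adjusted p = 0.0172). It overlaps ppm-1.G on the opposite strand, and reads of the pair cannot be told apart without strand. Of 23 tested members of the synaptic list 0 were called by edgeR. At an unadjusted p under 0.05, 3 were higher and 2 lower (10.1% and 10% of all genes). DESeq2 called 0 higher and 2 lower of 16 with an adjusted p (4.16% and 7.7% of all genes). The list's median was 0.33 in the WT pair, 0.011 in the Tau aggregate pair and 1.02 in the Anti-Tau aggregate pair.

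The gene sop-2 (C50E10.4, chromosome II, 12339944 to 12344799) encodes a SAM-domain protein that acts like the Polycomb group in keeping Hox genes silent, and it had 86.4, 82.7 and 110.3 CPM in the 22 C libraries, against 15.5, 20.9 and 18.7 CPM in the 20 C libraries. The 6 values formed tight groups, all 3 libraries of 22 C being above 80 CPM and all 3 of 20 C below 21 CPM (log2 fold change 2.34, SE 0.17, edgeR adjusted p = 0.00228). The citron kinase homologue citk-1 (W02B8.2, chromosome II, 13908914 to 13915254) had 113, 121.8 and 147 CPM in the 22 C libraries, against 45.6, 50.1 and 54.5 CPM in the 20 C libraries. Its groups were apart as well, with pair ratios close to each other, and citk-1 rose (log2 fold change 1.34, SE 0.12, edgeR adjusted p = 0.00704). The N-methyltransferase gene anmt-3 (T07C12.9, chromosome V, 9956879 to 9958331) had 12.8, 28.2 and 16.06 CPM in the 22 C libraries, against 2.84, 6.13 and 2.20 CPM in the 20 C libraries. The change was a rise (log2 fold change 2.36, SE 0.28, edgeR adjusted p = 0.0214). The gene overlaps mam-5 on the opposite strand. The acid ceramidase gene asah-1 (K11D2.2, chromosome I, 12505114 to 12507569), whose product breaks ceramide down in lysosomes, had 73.9, 66.7 and 130.4 CPM in the 22 C libraries, against 30.4, 37.95 and 38.3 CPM in the 20 C libraries. A rise was called (log2 fold change 1.29, SE 0.19, edgeR adjusted p = 0.0433). The gene osgn-1 (F30B5.4, chromosome IV, 4207388 to 4218265), named after oxidative stress induced growth inhibitor, had 79.5, 79.5 and 78.5 CPM in the 22 C libraries, against 35.0, 45.5 and 41.6 CPM in the 20 C libraries. It rose in all genotypes to nearly the same level (log2 fold change 0.97, SE 0.14, edgeR adjusted p = 0.0433). In all 3 of these genes the libraries of 22 C lay above those of 20 C.

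**Figure D1:**
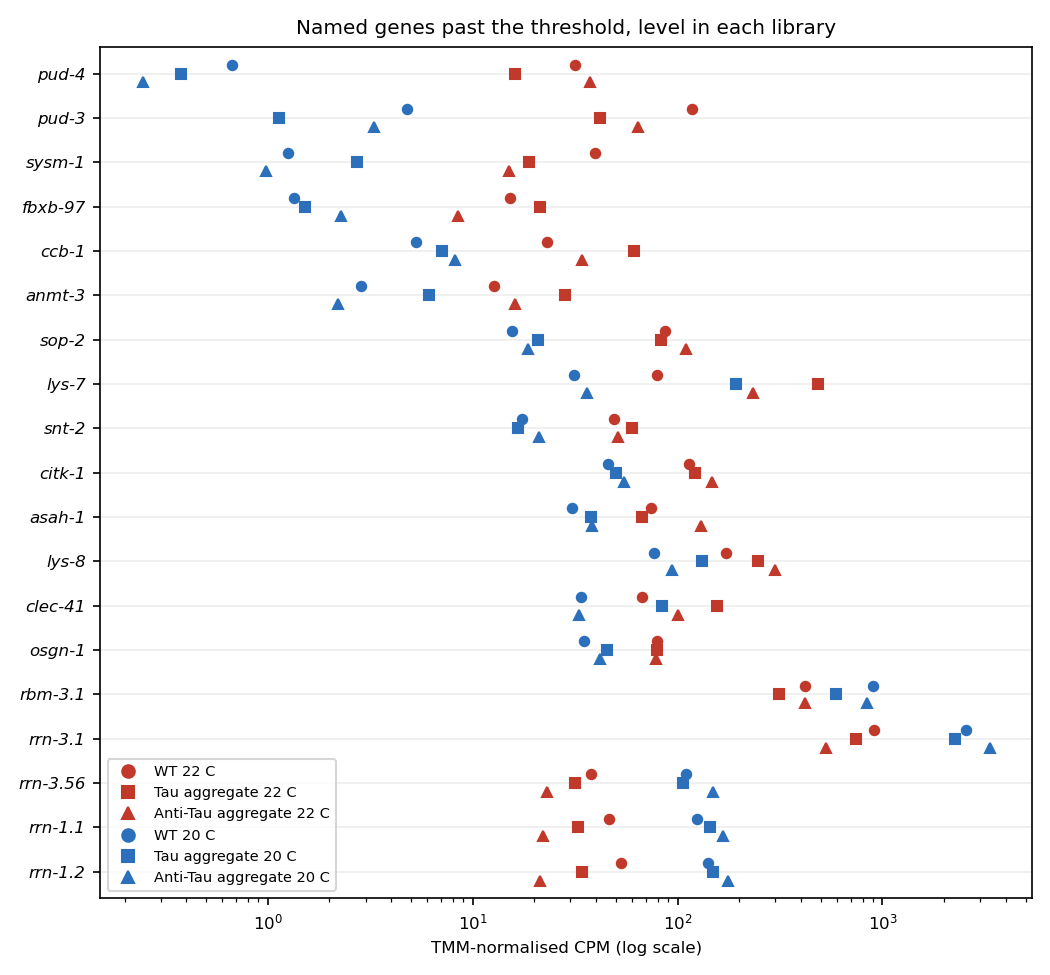
TMM-normalised CPM on a log axis of the 19 named genes past the threshold in each of the 6 libraries, red for 22 C and blue for 20 C, with the genotype given by the marker; each point is 1 library. The red and blue points are furthest apart in pud-4, pud-3 and sysm-1, overlap across genotypes in lys-7 and clec-41, and lie in the opposite order in rbm-3.1 and the rrn genes.

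Among the falls, rbm-3.1 (R09B3.2, chromosome I, 11909366 to 11909991), an RNA recognition motif gene of the RBM3 type, had 418, 314 and 421 CPM in the 22 C libraries, against 898, 594 and 843 CPM in the 20 C libraries. Each genotype was lower at 22 C and the groups did not overlap (log2 fold change -1.01, SE 0.11, edgeR adjusted p = 0.0161). The gene was measured on 6787 to 22804 counts per library, so counting error was small beside the difference. The gene B0393.8 (B0393.8, chromosome III, 4751878 to 4752370), chosen after its values were seen, showed the largest fall: it had 0.461, 1.76 and 0.665 CPM in the 22 C libraries, against 17.3, 28.4 and 22.2 CPM in the 20 C libraries. The libraries of 22 C held 11 to 38 counts of it and those of 20 C 363 to 449 counts (log2 fold change -4.59, SE 0.36, edgeR adjusted p = 0.00382). Another short gene, ZK856.16 (ZK856.16, chromosome V, 10205323 to 10205583), was likewise chosen after its values were seen. It had 9.21, 3.23 and 9.70 CPM in the 22 C libraries, against 31.04, 22.2 and 29.8 CPM in the 20 C libraries and fell (log2 fold change -1.97, SE 0.27, edgeR adjusted p = 0.037). The annotation gives no name to either.

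The other 4 falls came from the nuclear ribosomal RNA repeat at the end of chromosome I. The 26S rRNA gene rrn-3.1 (F31C3.9, chromosome I, 15064838 to 15068346) had 906, 746 and 528 CPM in the 22 C libraries, against 2544, 2255 and 3336 CPM in the 20 C libraries, and it fell (log2 fold change -1.91, SE 0.23, edgeR adjusted p = 0.0214). The 18S genes rrn-1.1 and rrn-1.2 fell by 2.14 and fell by 2.17 on the log2 scale (adjusted p = 0.0212 and 0.0261), and the pseudogene rrn-3.56 fell by 1.98 (adjusted p = 0.0161). For all 4 the libraries of 22 C lay wholly below those of 20 C, but rrn-1.1 and rrn-1.2 are copies of the same gene that may share reads, and all 4 lie in the same repeat, so they are not independent measurements. Nuclear and mitochondrial rRNA together took 0.118, 0.108 and 0.082% of counts in the 22 C libraries, against 0.276, 0.275 and 0.351% in the 20 C libraries. How rRNA was removed from the RNA is not given in the sources used here, so the level of rRNA in the worms and its removal cannot be told apart. With the rRNA genes left out of the table, an alternative chosen after seeing the data, 27 genes were higher and 4 lower, 31 in all, and all 31 were among the 36.

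The mitochondrial rRNA genes moved the other way. MTCE.7, the small rRNA of the mitochondrial genome, had 79.2, 73.7 and 103.5 CPM in the 22 C libraries, against 15.8, 27.3 and 17.9 CPM in the 20 C libraries, where the groups were apart. MTCE.33, the large one, had 117, 98.1 and 171 CPM in the 22 C libraries, against 21.2, 46.2 and 23.1 CPM in the 20 C libraries. Both rose (2.09 (SE 0.22) and 2.14 (SE 0.31) on the log2 scale, edgeR adjusted p = 0.0161 and 0.0433), with no overlap. They were chosen after their values were seen. The protein-coding genes of the same genome had lower values. Of 12 tested, 0 were called by edgeR. At an unadjusted p under 0.05, 7 were lower and 0 higher (10% and 10.1% of all genes). DESeq2 called 7 lower and 0 higher of 11 with an adjusted p (7.7% and 4.16% of all genes). The 12 had a median of -0.32, and 6 of them lay below with no overlap (2.99% of all genes). Cytochrome b, CYTB, had 1199.6, 1391 and 1036 CPM in the 22 C libraries, against 1953, 1811 and 1681 CPM in the 20 C libraries (log2 fold change -0.59, adjusted p = 0.122). The complex I subunit ND4 had 406, 342 and 283 CPM in the 22 C libraries, against 513, 469 and 455 CPM in the 20 C libraries (log2 fold change -0.49, adjusted p = 0.133). The 46 nuclear genes of the respiratory chain had a median of -0.020, with 0 called by edgeR. At an unadjusted p under 0.05, 4 differed each way (10.1% higher and 10% lower over all genes). DESeq2 called 1 each way of 44 with an adjusted p (4.16% higher and 7.7% lower over all genes).

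Of 85 tested ribosomal protein genes 0 were called by edgeR. The fitted change was below 0 in 81 and above 0 in 4 of them, and 79 were lower in all 3 pairs, as were 23.1% of all genes. At an unadjusted p under 0.05, 53 were lower and 0 higher (background 10% lower). DESeq2 called 68 lower (background 7.7%) and 0 higher. The median log2 fold change was -0.30, and by pair it was -0.44 in the WT pair, -0.22 in the Tau aggregate pair and -0.24 in the Anti-Tau aggregate pair. Levels summed over the list were 104045, 103233 and 117280.0 CPM in the 22 C libraries, against 140989, 120776 and 139518 CPM in the 20 C libraries, without overlap. Of the single genes 9 lay below with no overlap (2.99% of all genes). The small subunit gene rps-20, which had the smallest p of the members without overlap, had 1243, 1183 and 1357 CPM in the 22 C libraries, against 1890.2, 1440.0 and 1943 CPM in the 20 C libraries (log2 fold change -0.47, adjusted p = 0.149). The median stayed below 0 with total counts (-0.26) and with RLE size factors (-0.36). These genes are known to be regulated together, and their values are not independent of one another.

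The list of nucleolar and ribosome assembly genes had a median of -0.40 over 18 tested members, of which 17 were below 0 and 1 above, with 1 call, lower, which is the rRNA gene rrn-3.1 itself, listed there beside the protein-coding members. Of those protein-coding members nol-56, fib-1, nol-58, nucl-1 and dao-5 lay below with no overlap (2.99% of all genes did), all 5 with an adjusted p above the threshold. Fibrillarin, fib-1, which methylates rRNA, had 568, 547 and 556 CPM in the 22 C libraries, against 778, 750.4 and 811 CPM in the 20 C libraries (log2 fold change -0.48, adjusted p = 0.126). The box C/D protein gene nol-56 had 336, 415 and 378 CPM in the 22 C libraries, against 509.8, 614 and 519.8 CPM in the 20 C libraries (log2 fold change -0.54, adjusted p = 0.106). DESeq2 called 10 of the 18 members lower and 0 higher (7.7% and 4.16% of all genes).

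The proteasome list, the subunits of the protease that degrades ubiquitin-tagged proteins, had a negative fitted value in all 33 tested members (50.5% of all genes did). Its median was -0.28, 0 members were called by edgeR, 17 were lower and 0 higher at an unadjusted p under 0.05 (10% and 10.1% of all genes), and DESeq2 called 13 lower and 0 higher (7.7% and 4.16% of all genes). No subunit lay below without overlap. The median was -0.34 in the WT pair, -0.056 in the Tau aggregate pair and -0.41 in the Anti-Tau aggregate pair. Lists of germline and meiosis genes (-0.17), small RNA pathway genes (-0.22) and splicing and decay genes (-0.18) had negative medians of similar size. Genes of these lists are highly expressed in the germline, and edgeR called 0 of them. Lower at an unadjusted p under 0.05 were 8 of 38, 13 of 35 and 7 of 29 tested members (10% of all genes). Higher at that threshold were 0, 1 and 0 (10.1% of all genes). DESeq2 called 5, 7 and 6 of their members lower and 0 higher (7.7% and 4.16% of all genes). Whether a different share of germline tissue accompanies the proteasome values was not tested.

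**Figure D2:**
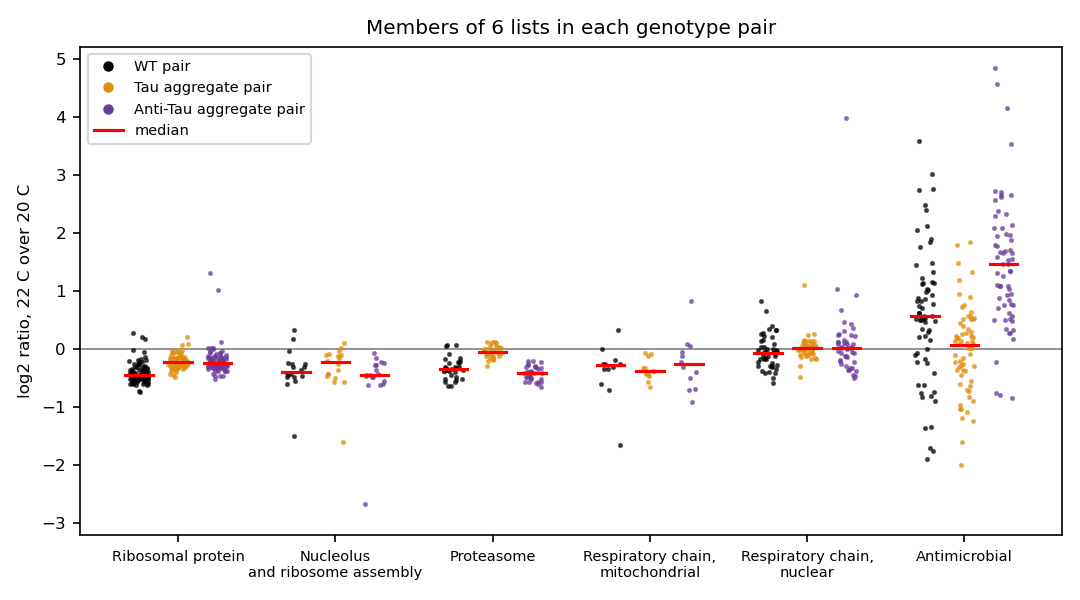
Log2 ratio of 22 C over 20 C (CPM with a prior count of 2) for each tested member of 6 lists in the WT, Tau aggregate and Anti-Tau aggregate pairs; a red bar marks the median of a list in a pair, and 3 members lie outside the axis. The ribosomal protein medians are -0.44, -0.22 and -0.24, while the antimicrobial medians are 0.57, 0.076 and 1.46.

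Heat shock genes gave no call. Of 27 tested members of the cytosolic heat shock list 0 were called by edgeR, 0 had an unadjusted p under 0.05, and DESeq2 and limma voom called 0. The small heat shock gene hsp-16.2 had 0.586, 2.54 and 1.57 CPM in the 22 C libraries, against 1.58, 1.07 and 1.47 CPM in the 20 C libraries (log2 fold change 0.051, SE 0.55). Its partner hsp-16.41 had 0.209, 2.03 and 2.04 CPM in the 22 C libraries, against 1.22, 0.884 and 1.71 CPM in the 20 C libraries (log2 fold change 0.0067, SE 0.61), where the pairs differed in sign. The gene hsp-70 had 0.586, 5.73 and 2.28 CPM in the 22 C libraries, against 2.72, 1.71 and 4.65 CPM in the 20 C libraries (log2 fold change -0.27, SE 0.65). In all 3 the WT pair was lower at 22 C and the Tau aggregate pair higher, and the sign of the fit changed among the alternatives tried. These genes were near the lower limit of counting, with 5 to 124 counts per library, and copies of hsp-16 genes may share reads.

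The constitutive chaperones were among the more abundant mRNAs. The Hsp70 gene hsp-1 had 3341, 2479 and 2775 CPM in the 22 C libraries, against 3383, 2771 and 3580.4 CPM in the 20 C libraries (log2 fold change -0.18, SE 0.14, adjusted p = 0.488). For hsp-90 the levels were 4328, 3167 and 3637 CPM in the 22 C libraries, against 4777, 3123 and 5185 CPM in the 20 C libraries (log2 fold change -0.21, SE 0.16, adjusted p = 0.479). The transcription factor gene hsf-1 had 129.8, 87.5 and 116 CPM in the 22 C libraries, against 142, 91.1 and 139 CPM in the 20 C libraries (log2 fold change -0.15, SE 0.11, adjusted p = 0.466). In the list of the endoplasmic reticulum unfolded protein response 0 of 24 tested members were called by edgeR, and the median was 0.059. At an unadjusted p under 0.05, 5 were higher and 0 lower (10.1% and 10% of all genes), and DESeq2 called 2 higher (4.16% of all genes). The 13 genes of the mitochondrial unfolded protein response had a median of -0.071, with 0 calls by edgeR and by DESeq2. Of these 13, 2 were higher at an unadjusted p under 0.05 (10.1% of all genes).

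Among the desaturases, which put double bonds into fatty acids, fat-7 had lower values at 22 C and fat-5 and fat-6 higher ones. The gene fat-7 had 20.8, 27.5 and 24.3 CPM in the 22 C libraries, against 61.1, 158 and 46.6 CPM in the 20 C libraries. All 3 libraries of 22 C were below all 3 of 20 C, but the adjusted p missed the threshold (log2 fold change -1.69, SE 0.27, edgeR adjusted p = 0.0623). It was past the threshold in 9 of the 16 alternatives tried, its adjusted p ranging over 5.49e-11 to 0.787. The stearoyl-CoA desaturase gene fat-6, a close relative of fat-7, had 309, 249 and 479 CPM in the 22 C libraries, against 156, 216 and 140.1 CPM in the 20 C libraries, without overlap and in the other direction (log2 fold change 0.99, SE 0.25, edgeR adjusted p = 0.143). The palmitoyl-CoA desaturase gene fat-5 had 30.3, 29.9 and 32.7 CPM in the 22 C libraries, against 9.77, 28.6 and 11.8 CPM in the 20 C libraries, where the Tau aggregate pair hardly differed (log2 fold change 1.02, SE 0.31, edgeR adjusted p = 0.164). As fat-6 and fat-7 are similar in sequence, they may share some reads.

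The enzymes of polyunsaturated fatty acid synthesis, given here because they complete the family, also had higher values at 22 C. The omega-6 desaturase gene fat-2 had 953, 735 and 1314 CPM in the 22 C libraries, against 252, 543 and 285 CPM in the 20 C libraries (log2 fold change 1.53, SE 0.31, adjusted p = 0.11). The omega-3 desaturase gene fat-1 had 640.2, 409 and 799 CPM in the 22 C libraries, against 330.4, 354 and 365 CPM in the 20 C libraries (adjusted p = 0.133). The delta-6 desaturase gene fat-3 had 239, 202 and 452 CPM in the 22 C libraries, against 114, 164 and 129 CPM in the 20 C libraries (adjusted p = 0.133). In these 3 genes the groups were apart. For fat-4 the groups overlapped, with 320.2, 223 and 432 CPM in the 22 C libraries, against 219.6, 236 and 225 CPM in the 20 C libraries. In the whole list of desaturation and membrane fluidity genes 0 of 30 tested members were called by edgeR. At an unadjusted p under 0.05, 9 were higher and 3 lower (10.1% and 10% of all genes). DESeq2 called 4 higher and 2 lower of 27 with an adjusted p (4.16% and 7.7% of all genes). With no overlap, 8 lay above and 4 below (6.01% and 2.99% of all genes). The membrane fluidity sensor gene paqr-2 had 62.5, 53.6 and 67.8 CPM in the 22 C libraries, against 77.1, 48.4 and 76.6 CPM in the 20 C libraries (log2 fold change -0.12, SE 0.14).

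**Figure D3:**
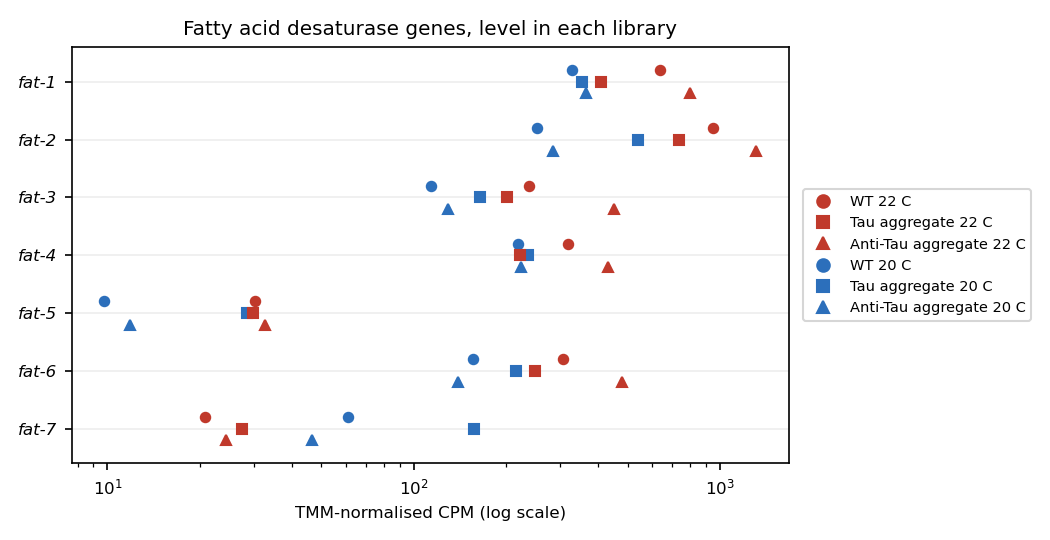
TMM-normalised CPM on a log axis of the 7 fatty acid desaturase genes in each of the 6 libraries, red for 22 C and blue for 20 C, with the genotype given by the marker. The red points of fat-7 all lie left of its blue points, those of fat-1, fat-2, fat-3, fat-5 and fat-6 lie right of them, and fat-4 overlaps.

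The receptor guanylate cyclase genes of the thermosensory neuron AFD were near the lower limit of counting in whole worms. The AFD cyclase gene gcy-8 had 3 to 14 counts in the 22 C libraries, against 1 to 24 counts in the 20 C libraries, and did not pass the filter. For gcy-18 the levels were 1.13, 0.832 and 1.28 CPM in the 22 C libraries, against 0.394, 1.07 and 0.122 CPM in the 20 C libraries (log2 fold change 1.09, SE 0.63). Those of gcy-23 were 1.17, 2.59 and 0.475 CPM in the 22 C libraries, against 0.394, 1.26 and 0.184 CPM in the 20 C libraries (log2 fold change 1.24, SE 0.46). Neither passed the threshold (adjusted p = 0.36 and 0.197). The thermosensory list summed to 579, 566 and 586 CPM in the 22 C libraries, against 505, 559 and 535 CPM in the 20 C libraries. Of its 11 tested members 0 were called by edgeR or DESeq2, and 3 were higher at an unadjusted p under 0.05 (10.1% of all genes). Its member crh-1, a CREB homologue, had 41.3, 36.8 and 42.8 CPM in the 22 C libraries, against 31.7, 28.6 and 30.1 CPM in the 20 C libraries, without overlap (log2 fold change 0.42, SE 0.15, adjusted p = 0.195). The steroid hormone synthesis gene daf-9 was below the filter, and its receptor gene daf-12 had 9.84, 17.8 and 13.5 CPM in the 22 C libraries, against 6.46, 19.4 and 7.84 CPM in the 20 C libraries (log2 fold change 0.38, SE 0.27). A difference in the gcy genes smaller than their errors was not detectable at this depth.

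Lysosomal lipase genes had higher values at 22 C without passing the threshold. The gene lipl-2, chosen after its values were seen, had 11.5, 8.27 and 30.9 CPM in the 22 C libraries, against 0.315, 2.15 and 0.429 CPM in the 20 C libraries (log2 fold change 4.12, SE 0.62, adjusted p = 0.0548). In the insulin and steroid hormone list, which holds it, 0 of 21 tested members were called by edgeR. At an unadjusted p under 0.05, 5 were higher and 1 lower (10.1% and 10% of all genes). DESeq2 called 3 higher and 1 lower of 19 with an adjusted p (4.16% and 7.7% of all genes). The insulin receptor gene daf-2 itself had 161, 137 and 173 CPM in the 22 C libraries, against 116, 117 and 122.2 CPM in the 20 C libraries, without overlap (adjusted p = 0.159).

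Cytochrome P450 genes, which oxidise lipids and foreign compounds, had the highest median of the 39 lists, 0.63 over 53 tested members. None was called by edgeR, and 16 were higher and 0 lower at an unadjusted p under 0.05 (10.1% and 10% of all genes). With no overlap 8 lay above and 1 below (6.01% and 2.99% of all genes), and DESeq2 called 8 higher and 0 lower of 32 with an adjusted p (4.16% and 7.7% of all genes). The largest of these values was in cyp-37B1, with 1.30, 1.85 and 7.94 CPM in the 22 C libraries, against 0.0788, 0.505 and 0.0612 CPM in the 20 C libraries (adjusted p = 0.0651). The gene cyp-14A2 had 5.11, 7.53 and 7.70 CPM in the 22 C libraries, against 0.748, 2.08 and 0.735 CPM in the 20 C libraries (adjusted p = 0.0828). The median was 0.72 in the WT pair, 0.044 in the Tau aggregate pair and 1.44 in the Anti-Tau aggregate pair. The transferases of the UGT and GST families had a median of 0.26 over 85 tested members, with 0 calls by edgeR. Of the 85, 14 were higher and 2 lower at an unadjusted p under 0.05 (10.1% and 10% of all genes). By DESeq2, 4 were higher and 1 lower of 59 with an adjusted p (4.16% and 7.7% of all genes).

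Genes that mark developmental stage and reproduction differed between temperatures in some genotypes and in opposite directions in others. Sperm genes, switched on in the last larval stage of hermaphrodites, had a median of -2.64 in the WT pair, -0.44 in the Tau aggregate pair and 2.91 in the Anti-Tau aggregate pair. Their summed level was 457, 1188 and 629 CPM in the 22 C libraries, against 631, 1563 and 423 CPM in the 20 C libraries. Of 88 tested members 0 were called by edgeR and 6 were higher at an unadjusted p under 0.05 (10.1% of all genes). DESeq2 called 2 higher of 58 with an adjusted p (4.16% of all genes). Cuticle collagens, which are made in pulses around each moult, had a median of -0.73 in the WT pair, -0.88 in the Tau aggregate pair and 1.06 in the Anti-Tau aggregate pair, and their summed level was 8861, 26982 and 9553 CPM in the 22 C libraries, against 9571, 30137 and 7912 CPM in the 20 C libraries. The 2 Tau aggregate libraries had the highest sums of both lists at either temperature. No collagen was called by edgeR among 95 tested. At an unadjusted p under 0.05, 5 were higher and 17 lower (10.1% and 10% of all genes). DESeq2 called 0 higher and 3 lower of 61 with an adjusted p (4.16% and 7.7% of all genes).

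The 6 vitellogenin genes, which are made in the adult intestine for the oocytes, summed to 101755, 50587 and 105772 CPM in the 22 C libraries, against 40318, 53125 and 50709 CPM in the 20 C libraries. The WT and Anti-Tau aggregate libraries of 22 C stood well above the other 4 libraries. None of the 6 was called by edgeR or DESeq2, and 3 were higher at an unadjusted p under 0.05 (10.1% of all genes). The oocyte and eggshell list summed to 23855, 15649.5 and 19185 CPM in the 22 C libraries, against 22089, 15621 and 23039.9 CPM in the 20 C libraries, with a median of -0.048. Whether these stage and yolk differences take part in the called genes was not tested.

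**Figure D4:**
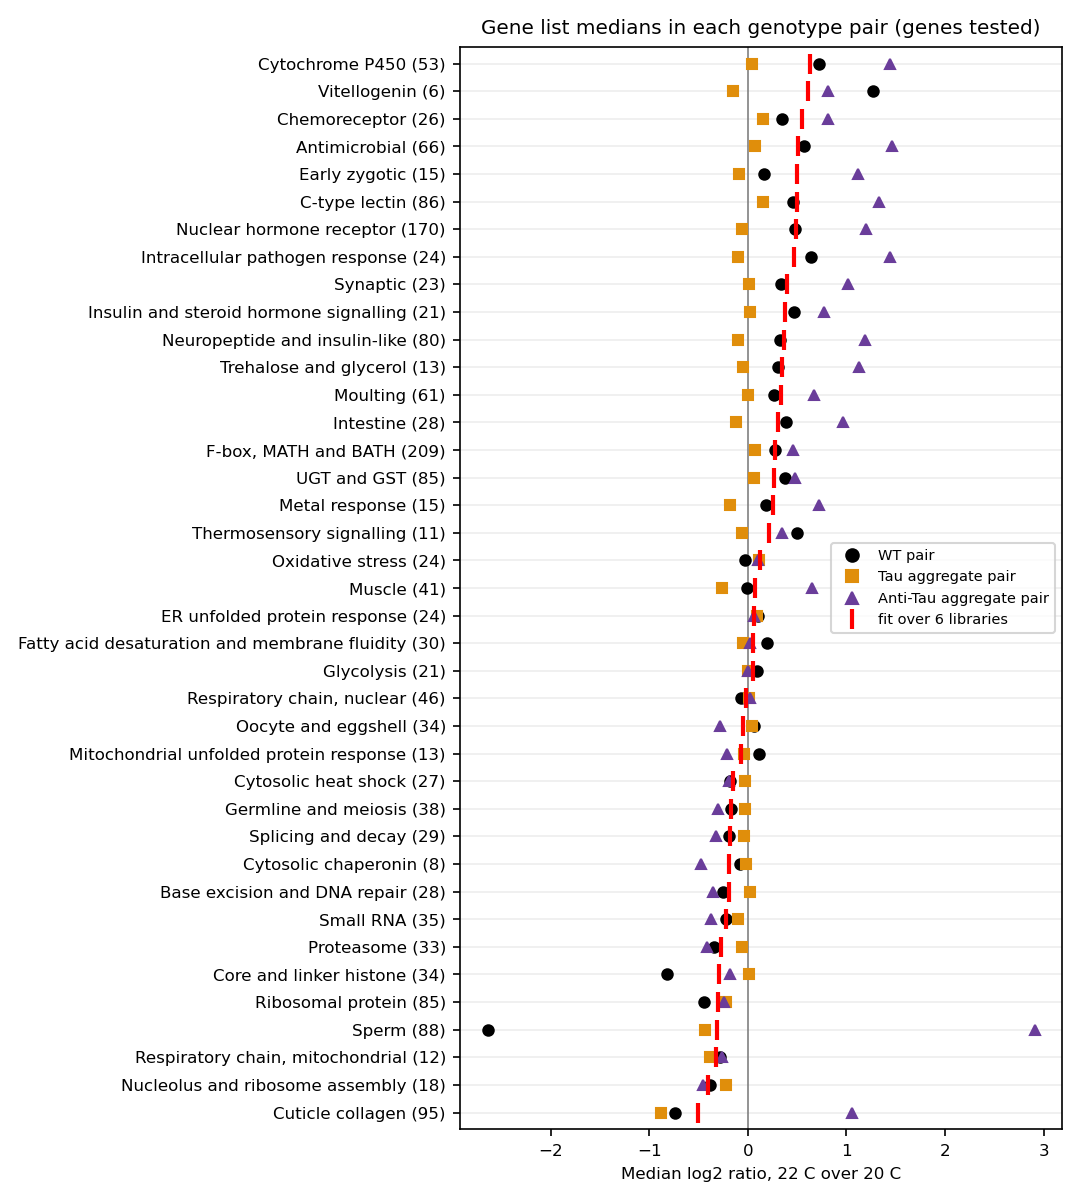
Median log2 ratio of 22 C over 20 C of the tested members of 39 gene lists (number tested in brackets) in the WT, Tau aggregate and Anti-Tau aggregate pairs, with the median of the fit over the 6 libraries as a red bar. The 3 pairs lie together for the ribosomal protein, nucleolar and mitochondrially encoded lists, between -0.22 and -0.45, and furthest apart for the sperm list, between -2.64 and 2.91.

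The 6 mutant libraries gave a reading of the same genes that shares no library with the comparison above, although there the mutated gene changes together with temperature and library set. None of 12924 genes was called between 22 C Ung-1 and 20 C Nth-1 libraries by edgeR, with 2983 genes at an unadjusted p under 0.05. DESeq2 called 343 higher (2.76%) and 1245 lower (10%). Of the 36 genes called on the wild-type background, 32 had the same direction in the mutant libraries, 25 of the 29 higher and 7 of the 7 lower, and 17 had it in all 3 mutant pairs. Of the 7 lower genes, 4 come from the rRNA repeat and are not independent. In each of those 4, and in B0393.8, the Anti-Tau aggregate pair of the mutant libraries was higher at 22 C. The mutant log2 fold change of rrn-3.1 was -0.85 (SE 1.33). Over all genes tested in both sets 46.9% had the same direction, and the share with it in all 3 mutant pairs was not counted. With an unadjusted p under 0.05 and the same direction there were 13 of the 36, beside 2983 of all 12924 genes at that p in either direction. DESeq2 called 14 of the 36 in the same direction and 1 in the opposite one (2.76% higher and 10% lower over all genes). Whether these counts exceed those shares was not tested.

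The genes pud-4, pud-3, sysm-1, fbxb-97, lys-7 and lys-8 were higher at 22 C in the mutant libraries too, on the scale of those libraries alone. For pud-3 the levels were 239, 56.7 and 49.8 CPM in the 22 C Ung-1 libraries, against 1.75, 0.523 and 17.5 CPM in the 20 C Nth-1 libraries (log2 fold change 4.89 (SE 1.43)). Levels of sysm-1 were 43.02, 13.9 and 19.1 CPM in the 22 C Ung-1 libraries, against 1.79, 1.83 and 0.351 CPM in the 20 C Nth-1 libraries (log2 fold change 4.29 (SE 0.60)). Those of lys-7 were 165, 251 and 281 CPM in the 22 C Ung-1 libraries, against 21.6, 37.8 and 37.5 CPM in the 20 C Nth-1 libraries (log2 fold change 2.86 (SE 0.14)). In these genes each 22 C library was above each 20 C library. Levels of ccb-1 were 7.25, 22.7 and 9.68 CPM in the 22 C Ung-1 libraries, against 8.19, 9.35 and 30.5 CPM in the 20 C Nth-1 libraries, with overlap (-0.19 (SE 0.64) on the log2 scale), and sop-2 had a mutant log2 fold change of 0.68 (SE 0.32). Also called higher on the wild-type background but negative in the mutant fit were C48D1.9, Y73B6BL.12 and R10F2.6. Their mutant log2 fold changes were -0.40 (SE 0.89), -0.23 (SE 1.32) and -1.35 (SE 0.30). For rrn-3.1 the mutant libraries were 720.3, 2866 and 6790.5 CPM in the 22 C Ung-1 libraries, against 4464, 9780.3 and 939 CPM in the 20 C Nth-1 libraries, and these ranges overlapped. The RBM3-type gene rbm-3.1 had 359, 353 and 285 CPM in the 22 C Ung-1 libraries, against 404, 403 and 462 CPM in the 20 C Nth-1 libraries, lower in all 3 pairs (log2 fold change -0.35 (SE 0.16)). Whether this differs from the -1.01 of the wild-type background was not tested. The desaturase gene fat-7 had 32.4, 27.4 and 55.3 CPM in the 22 C Ung-1 libraries, against 183, 187 and 111 CPM in the 20 C Nth-1 libraries, again without overlap, with an adjusted p of 0.183. The mitochondrial rRNAs MTCE.7 and MTCE.33 had mutant log2 fold changes of 2.17 (SE 0.47) and 2.15 (SE 0.43).

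**Figure D5:**
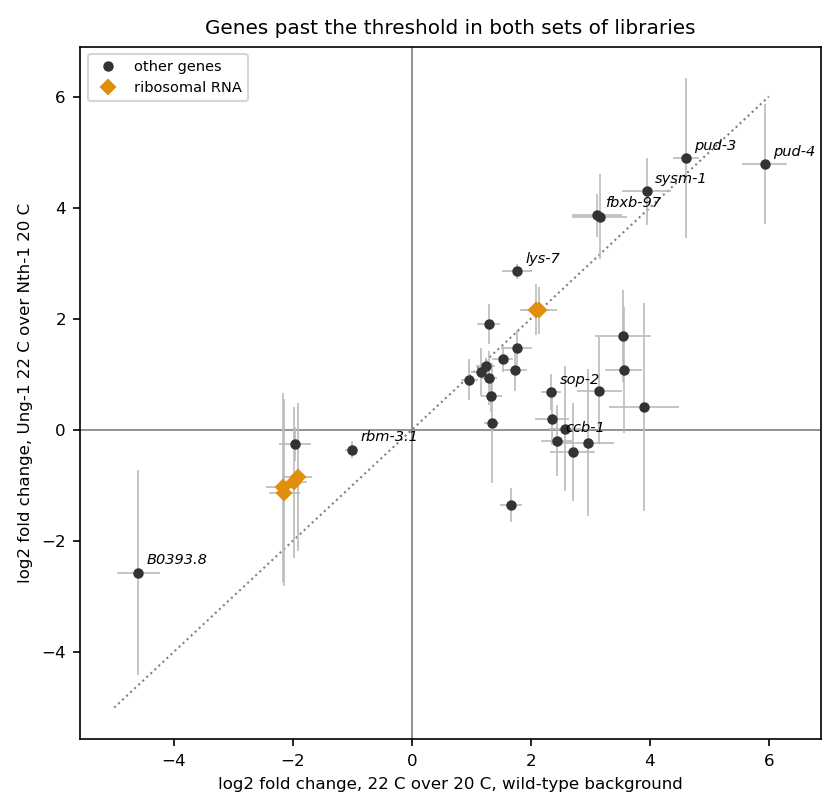
Log2 fold change of 22 C over 20 C on the wild-type background (horizontal) and of 22 C Ung-1 over 20 C Nth-1 (vertical) for the 36 called genes, with standard errors as bars; diamonds are ribosomal RNA genes and the rRNA pseudogene, and the dotted line marks equal values. The genes pud-3, pud-4, sysm-1 and fbxb-97 lie near the line, while ccb-1 lies near 0 on the vertical axis and sop-2 at 0.68.

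Taking all 12 libraries on 1 scale, as a description added after seeing the data, all 6 libraries of 22 C lay above all 6 of 20 C in 173 of 12668 genes (1.37%) and below them in 76 (0.6%). Of the 29 genes called higher on the wild-type background 12 were among the 173, pud-2.1, pud-3, pud-4, sysm-1 and fbxb-97 among them, and of the 7 called lower 0 were among the 76. Others of the 173, chosen after their values were seen, were the lipases lipl-1 and lipl-2, the sphingomyelinase gene asm-3, the saposin-like gene spp-2 and the legumain protease gene lgmn-1. The protease gene lgmn-1 averaged 165.5 CPM over the 22 C libraries, against 49.9 CPM over the 20 C libraries. Those below included CYTB, ND1, ND4 and ND6 of the mitochondrial genome and fib-1, nol-56, nol-58 and dao-5 of the nucleolus, with the peptide transporter gene pept-1. As in the comparison of 3 against 3, the 2 library sets are split the same way by temperature in all 12 libraries.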

How the data were processed

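RNA of whole day 1 worms was sequenced in 12 libraries, of which the 6 on wild-type background were compared. The deposited files give raw read counts per gene, made by the authors after alignment with HISAT2 to WBcel235, per the submitters' processing notes, which also name edgeR 3.22.5; how reads were counted, and with which use of strand and of multiply matching reads, is not given in the sources used here. Genes that overlap or have near-identical copies may therefore share reads. Names and coordinates came from the Ensembl annotation of WBcel235 and, where a name was missing, from RefSeq.

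Counts were tested with edgeR 4.0.16 (R 4.3.3), its quasi-likelihood test, TMM scaling and filterByExpr, with genotype as the pairing block and temperature as the tested term, 2 residual degrees of freedom, and Benjamini-Hochberg adjustment at 0.05. The pairing comes from the genotype labels; each pair is the same strain. Log2 ratios of single pairs used CPM with a prior count of 2. The 6 mutant libraries were fitted alone in the same way. Each standard error (SE), in the text and as figure bars, was worked back from the test. It is the absolute log2 fold change divided by the square root of the F statistic. Library totals ran from 15124127 to 26282132 counts in the 6 libraries, and values of single libraries are limited by counting error at low counts. On simulated counts of 12743 genes made from these libraries for the 22 C to 20 C comparison, with 200 genes changed, the test recovered 38% of 2-fold and 69% of 4-fold changes, with 21 false calls.

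The genes named were those with adjusted p under 0.05, a mean of at least 5 CPM, a proper gene name and 1 direction over all 3 pairs, up to the 15 largest changes each way, which 14 higher and 5 lower genes met; up to 4 members past the threshold in each list; and a fixed set of heat shock, desaturase, thermosensory and glycosylase genes. Genes named outside this rule were chosen after their values were seen. The comparison, the 39 gene lists and the tests were chosen with earlier results of these data known, so a list's direction is no independent evidence. Alternatives were RLE size factors, total counts, no filter, a minimum mean of 5 CPM, DESeq2 1.42.0, voom of limma 3.58.1, the legacy quasi-likelihood test, no pairing, all 12 libraries and leaving out each library; leaving out the rRNA genes and the reading of 6 against 6 libraries were added after seeing the data. The titles of 3 mutant libraries of 20 C read UNG-1, but their genotype labels read Nth-1 and were followed.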

Additional observations from a re-analysis of the deposited data

Results flagged for a closer look

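In the sperm gene list the pairs lay in opposite directions: the median log2 ratio of 22 C over 20 C was 2.91 in the Anti-Tau aggregate pair and -2.64 in the WT pair, a difference of 5.55. With 1 library per genotype and temperature this difference was not tested. In the cuticle collagen list the median was 1.06 in the Anti-Tau aggregate pair and -0.88 in the Tau aggregate pair, a difference of 1.93, which was not tested either. More widely, 468 of 12743 genes were at least 2-fold higher at 22 C in the Anti-Tau aggregate pair and at least 2-fold lower in the WT pair, against 26 genes with the opposite pattern.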

How the results depend on the processing

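The number of called genes moved with most choices, while the direction of the 36 called genes did not: each kept it in all 16 alternatives in which it was tested, and no named gene past the threshold reversed. The alternatives reuse the libraries in which the 36 were called for a consistent change. A kept direction is therefore no independent evidence. The heat shock genes hsp-16.2, hsp-16.41 and hsp-70, which were not called, changed sign in 6, 7 and 4 of 14 alternatives. Against 29 higher and 7 lower genes, RLE size factors gave 35 and 9, total counts 58 and 9, no filter 5 and 2, a minimum mean of 5 CPM 17 and 6, DESeq2 386 and 715, limma voom 16 and 6, the legacy quasi-likelihood test 5 and 1, all 12 libraries 0 and 0, and the table without the rRNA genes 27 and 4. Higher genes were 80.6% of calls in the paired edgeR test and 35.1% in DESeq2. Leaving out each library gave 98 to 302 higher and 13 to 227 lower genes, with 1 residual degree of freedom. The lone library of the broken pair is fitted by its own genotype term. It adds nothing to the fitted temperature difference, which rests on the remaining pairs. The cause of these shifts was not tested.

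Without the replicate block, that is without pairing the libraries by genotype, 1 gene was higher and 0 were lower on the wild-type background, the gene being among the 36, and 7 were higher and 2 lower between the mutant libraries.

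Between 22 C Ung-1 and 20 C Nth-1 libraries, where the paired edgeR test called 0 and 0, RLE size factors gave 0 and 0, no filter 5 and 14 and DESeq2 343 and 1245. Leaving out each library there gave 3 to 3909 higher and 6 to 4509 lower genes; the counts were 3909 and 3960 without Ung-1 X Anti-Tau aggregate 22 C and 2889 and 4509 without Nth-1 X Anti-Tau aggregate 20 C, and 123 and 755 without Ung-1 22 C, 66 and 708 without Ung-1 X Tau aggregate 22 C, 3 and 6 without Nth-1 20 C, and 22 and 45 without Nth-1 X Tau aggregate 20 C. The cause was not tested.

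Single libraries per genotype and temperature limit every value here: how far replicate cultures of a strain would differ was not measured. Genes below about 2 CPM, such as the hsp-16 and gcy genes, rest on few counts.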

Other observations

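The trehalose and glycerol list, not described in the report, had a median log2 fold change of 0.35 over 13 tested members, with 0 called by edgeR. In that list 3 were higher at an unadjusted p under 0.05 (10.1% of all genes) and 1 higher by DESeq2 (4.16% of all genes). Its member lea-1, a late embryogenesis abundant protein gene linked to desiccation tolerance, chosen after its values were seen, had 696, 372 and 587 CPM in the 22 C libraries, against 239, 371 and 256 CPM in the 20 C libraries (log2 fold change 0.92, adjusted p = 0.155). Among genes against oxidative stress the catalase gene ctl-2 had 45.8, 44.5 and 81.1 CPM in the 22 C libraries, against 20.5, 38.1 and 21.5 CPM in the 20 C libraries and the mitochondrial thioredoxin gene trx-2 had 32.4, 33.96 and 47.8 CPM in the 22 C libraries, against 56.3, 50.3 and 59.0 CPM in the 20 C libraries, in opposite directions and each without overlap (adjusted p = 0.147 and 0.151). Core and linker histone genes had a median of -0.29 over 34 tested members, with 0 called by edgeR. At an unadjusted p under 0.05, 2 were higher and 5 lower (10.1% and 10% of all genes). DESeq2 called 0 higher and 3 lower of 20 with an adjusted p (4.16% and 7.7% of all genes). The glycosylase genes mutated in the other libraries differed little on the wild-type background: ung-1 had 46.8, 41.8 and 47.7 CPM in the 22 C libraries, against 62.1, 40.4 and 62.6 CPM in the 20 C libraries (log2 fold change -0.26, SE 0.15), and nth-1 had 29.3, 31.2 and 25.8 CPM in the 22 C libraries, against 26.4, 24.6 and 26.9 CPM in the 20 C libraries (log2 fold change 0.15, SE 0.17).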
